A study of Mus musculus with 6 samples.

Results

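Respiratory complex I, the NADH:ubiquinone oxidoreductase of mitochondria, was examined through its nuclear genes in lung group 2 innate lymphoid cells (ILC2s) with and without SIRPα. The members were 48 of the 17831 genes of the deposited count table, those whose symbol begins with Nduf and does not end in -ps. The 4 genes with symbols ending in -ps (Ndufa12-ps, Ndufab1-ps, Ndufb1-ps and Ndufs5-ps) were left out by symbol alone. Any subunit encoded by one of them is therefore missing from the counts below. The members comprised 36 subunits of the complex (7 core and 29 supernumerary), 8 assembly factors (Ndufaf genes) and 4 others. These 4 were Ndufa4 and the processed pseudogenes Ndufa11b, Ndufb4c and Ndufs6b. SIRPα is an inhibitory receptor for CD47, and the study asked how its loss alters the metabolism of ILC2s, lymphocytes that release IL-5 and IL-13. Bulk RNA sequencing was available for 3 libraries from WT mice (CB57BL/6 in the labels) and 3 from SIRPα KO mice (SIRPalphatm1Ynliu/J). All mice, aged 6 to 8 weeks, had received 0.5 µg of rmIL-33 intranasally for 3 days, and CD45+ lineage- CD127+ ST2+ lung cells were sorted on day 4 and cultured with 10 ng/mL each of rmIL-2 and rmIL-7. The culture lasted 18 or 24 h, as the sources differ. The study names the mice as SIRPα-/- and gives no cell type for the deletion, and it does not say how many mice each library holds.

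Complex I takes electrons from NADH in the mitochondrial matrix, passes them through a flavin and a chain of iron-sulfur clusters to ubiquinone, and pumps protons into the intermembrane space. It has an L shape, with a peripheral arm that reaches into the matrix and carries the redox centres, and a membrane arm that carries the proton pumps. Core subunits do the chemistry and are shared with bacteria, some encoded in the nucleus and the others in mitochondrial DNA, while supernumerary subunits surround and stabilise the core. Assembly factors help to build the complex and are absent from the finished enzyme. In lymphocytes the complex feeds oxidative phosphorylation and keeps NADH oxidised.

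Library totals ranged from 13980499 to 19051507 counts, and values below are CPM, counts scaled to a fixed library size with TMM factors, unless stated otherwise. Pairs of libraries carry one code in the labels (WT replicates 1 and 2, and SIRPα KO replicates 2 and 3), so that they may derive from the same sample. In that case n = 3 counts libraries rather than independent samples, and p values measure only the spread between libraries. WT replicate 3 stood apart from the other WT libraries for the members, as shown next. The libraries were more variable in WT than in SIRPα KO, with a biological coefficient of variation of 38.1% against 15.2%. Summed ILC2 marker levels were 13700 to 15136 CPM in WT and 20134 to 20733 CPM in SIRPα KO (12 genes, 4 called), and most of each sum was Il5. The list was split, since Il5, Il2ra and Ptprc were called higher, with log2 fold changes of 0.49, 0.91 and 0.90, whereas Thy1, a surface marker shared with T cells, was called lower. Thy1 averaged 16.1 ± 6.04 CPM over the WT libraries against 3.86 ± 0.266 CPM for SIRPα KO (SD, n = 3 each, log2 fold change -2.06, adjusted p = 0.0139 from edgeR). Markers of B cells summed to 88.3 to 185 CPM in WT and 2.36 to 22.5 CPM in SIRPα KO (3 of 4 called), those of NK cells to 7.42 to 9.67 and 0.383 to 0.682 CPM (2 of 3 called), and those of epithelium to 16.8 to 25.5 and 7.13 to 12.9 CPM (1 of 3 called). The red cell marker Hba-a1 was also higher in WT, whereas no T cell, macrophage or dendritic cell marker that was tested passed the threshold. No eosinophil or neutrophil marker passed the filter on low counts, so none was tested. Eosinophil markers summed to 0 to 1.13 CPM in WT and 0.682 to 18.9 CPM in SIRPα KO. In SIRPα KO replicate 1, Epx stood at 9.65 CPM and Prg2 at 9.27 CPM. The part of these cells in the results below was not tested. Sirpa itself stood at 8.57, 6.83 and 4.83 CPM in WT and 3.07, 4.46 and 1.74 CPM in SIRPα KO, lower in all 3, with a log2 fold change of -1.12 that was not called (adjusted p = 0.115 from edgeR).

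The short promoter sequences of the subunits are shown first, because many members moved together. Of the 48 members, 40 had an entry in the RefSeq promoter table (GRCm38.p6, 250 bases before to 50 bases after the outermost start) and 8 had none. Both strands were searched for TGCGCA, the palindromic core of sites for NRF1, a regulator of nuclear genes for mitochondria, for AAGATGG, a core of YY1 sites, and for CCGGAAG, a core of sites for ETS factors such as GABPA. No 2 of these letter strings contain each other. The 30 bases around each match are given for every subunit with the NRF1 or YY1 core, with the match in capitals and each written on the strand of its gene. The first set holds the NRF1 core of 10 subunits, of which Ndufa6 has 2 matches.
Ndufa5 (chr6:24527700-24527729, minus strand): gcttgtgtgagcTGCGCAggcgcaaatcta
Ndufa6 (chr15:82354354-82354383, minus strand): cgcggtagagcaTGCGCAttgcagagcccg
Ndufa6 (chr15:82354246-82354275, minus strand): tggcaccgcgcgTGCGCAcgctgaaggggc
Ndufa8 (chr2:36049326-36049355, minus strand): gctggagacgcaTGCGCAgatggtaccggg
Ndufa9 (chr6:126849183-126849212, minus strand): ccagttggcgttTGCGCAgagaggtccttg
Ndufb10 (chr17:24724409-24724438, minus strand): ctgtcacctttcTGCGCAggcgtagaggtc
Ndufb4 (chr16:37654543-37654572, minus strand): aacgagaagcagTGCGCAcgcgcagaatac
Ndufb6 (chr4:40279482-40279511, minus strand): aagagagggcttTGCGCAtgagcagagcct
Ndufb8 (chr19:44555420-44555449, minus strand): gtgacccgctttTGCGCAtgtgcagagtga
Ndufs5 (chr4:123718268-123718297, minus strand): tgggctgcttgcTGCGCAggcgcagacccg
Ndufs6 (chr13:73328593-73328622, minus strand): acctttgaacacTGCGCAcagttaagccgc
The next 7 hold the YY1 core, which lay 22 to 38 bases after the start in each.
Ndufa3 (chr7:3617383-3617412, plus strand): gccgccaagaacAAGATGGccgggagtaag
Ndufa9 (chr6:126849098-126849127, minus strand): gcattgtgggagAAGATGGcggccgccgtc
Ndufb8 (chr19:44555393-44555422, minus strand): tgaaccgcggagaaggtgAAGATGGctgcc
Ndufc1 (chr3:51408916-51408945, minus strand): agcctgcggaacAAGATGGcgccgtccgta
Ndufs4 (chr13:114388045-114388074, minus strand): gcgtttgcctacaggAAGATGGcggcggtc
Ndufs6 (chr13:73328433-73328462, minus strand): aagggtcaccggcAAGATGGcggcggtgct
Ndufs7 (chr10:80249461-80249490, plus strand): aaggccgaggccAAGATGGcggcgctggcg

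The NRF1 core was found in 10 of the 32 subunit promoters (31.2%), compared with 15.3% of the 9501 promoters of tested genes. The YY1 core was found in 7 (21.9%, compared with 7.6%) and the ETS core in 4 (12.5%, compared with 19.8%). Of the 7 assembly factors with a promoter, Ndufaf4 held the NRF1 core, Ndufaf8 the YY1 core, and Ndufaf1 and Ndufaf8 the ETS core. The median log2 fold change was -0.68 over the 10 subunits with the NRF1 core and -0.57 over the 22 without it, with 5 and 10 called lower. For the YY1 core it was -0.62 over 7 subunits and -0.63 over 25, with 4 and 11 called lower. For the ETS core it was -0.54 over the 4 subunits that hold it and -0.68 over the other 28, with 1 and 14 called lower. None of these differences was tested. Ndufv3, the subunit with the lowest p value, held none of the 3 strings in its window, of which the 134 bases before the start that carry no annotated exon are shown.
Ndufv3 (chr17:31519981-31520114, plus strand): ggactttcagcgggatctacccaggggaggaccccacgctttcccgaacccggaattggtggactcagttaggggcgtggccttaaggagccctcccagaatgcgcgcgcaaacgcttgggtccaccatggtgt

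To learn how complex I transcripts differed between the genotypes, edgeR's quasi-likelihood test was fitted to all 13623 genes that passed the filter on low counts, and 46 of the 48 members were among them. Subunit transcripts were lower in SIRPα KO ILC2s, and 1 subunit was higher. Of the 36 subunits, 35 had a negative log2 fold change, compared with 51.6% of all tested genes, and 16 were called lower (adjusted p under 0.05), compared with 5.81% of all tested genes. Ndufs1 was called higher, in a direction in which 5.94% of all genes were called, and 19 subunits were not called. The groups did not overlap for 33 subunits that were lower (21.2% of all genes) and for Ndufs1 (21.6% in that direction). The median log2 fold change over the subunits was -0.60 (range -0.95 to 0.61), compared with -0.03 over all tested genes. In bulk libraries, fewer cells of a type and less RNA per cell cannot be told apart.

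The calls rested on all 3 SIRPα KO libraries. Without any one of them 0 subunits were called, and 23 to 25 were lower with an unadjusted p under 0.05. Over all 14141 to 14242 genes tested in those fits, 2935 to 3183 were at that threshold in either direction. In the main fit 31 subunits were lower at that threshold, compared with 15.8% of all tested genes. Summing libraries of one code also left 0 called by edgeR, and 26 were lower with an unadjusted p under 0.05 (3359 of 14581 genes in either direction). In these fits 10 to 17 genes of the whole table were called, and 35 of 36 subunits had a negative log2 fold change in each.

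**Figure D1:**
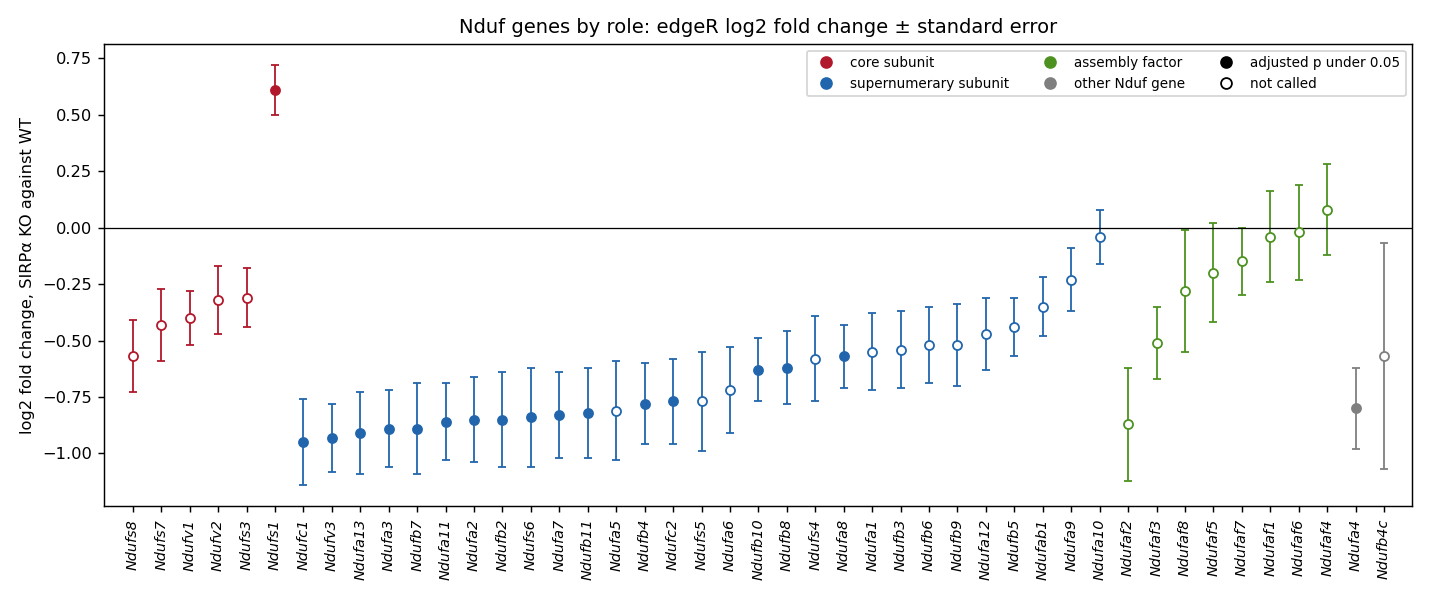
The log2 fold change of SIRPα KO against WT on the vertical axis is drawn for 45 Nduf genes on the horizontal axis, grouped by role, with bars for the standard error and filled points for an adjusted p under 0.05. Ndufs1 sits alone at 0.61, the 29 supernumerary subunits lie between -0.95 and -0.04, and no assembly factor is filled.

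Summed over the 36 subunits, the level was 4564, 4363 and 6198 CPM in the WT libraries and 3444, 3472 and 3539 CPM in the SIRPα KO libraries. The groups did not overlap, and WT replicate 3 lay far above the other WT libraries. WT replicate 3 was the highest of the 6 libraries for 34 of the 36 subunits. The median coefficient of variation over the subunits was 22.0% for WT and 3.76% for SIRPα KO. When WT replicate 3 was left out, 34 subunits were lower and 2 higher, with 23 called lower (8.07% of all genes in that fit). The WT libraries left in that fit carry one code and may derive from the same sample. If they do, that fit holds no spread between WT samples, and its calls cannot be compared with those of the main fit. The summed level of the 8 assembly factors was 251, 229 and 297 CPM in WT and 231, 230 and 225 CPM in SIRPα KO, and the groups overlapped.

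**Figure D2:**
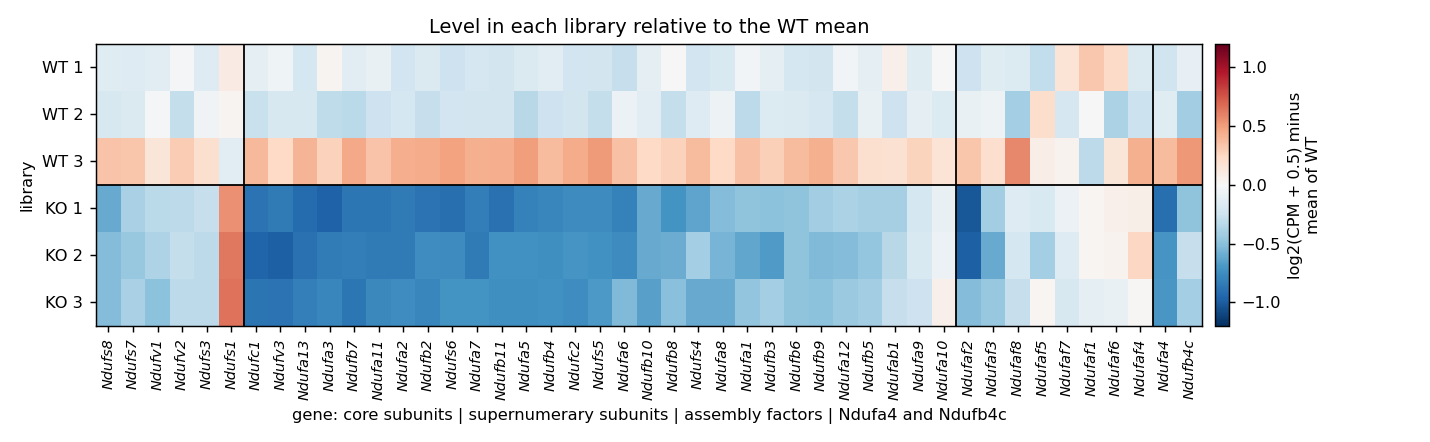
Each cell is the level of 1 gene (horizontal axis) in 1 library (vertical axis) as log2(CPM + 0.5) minus the mean of the 3 WT libraries, from blue for lower to red for higher. The WT 3 row is red for most subunits, and the KO rows are blue for most subunits but red for Ndufs1 in all 3.

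The 7 core subunits carry the flavin and the iron-sulfur clusters or line the ubiquinone site, and all of them belong to the peripheral arm. None of them was called lower, 1 was called higher, and their median was -0.32 on the log2 scale. Ndufs1, on chromosome 1 from 63143596 to 63176833 (mm10), is the largest subunit and holds several of the iron-sulfur clusters. Its level was 119, 114 and 101 CPM in WT and 163, 172 and 175 CPM in SIRPα KO. All 3 SIRPα KO libraries lay above all 3 WT libraries. The log2 fold change was 0.61 with a standard error (SE) of 0.11, a 1.53-fold rise (adjusted p = 0.0203 from edgeR). As a share of the reads of the 36 subunits, Ndufs1 took 2.60%, 2.61% and 1.63% in WT and 4.74%, 4.95% and 4.93% in SIRPα KO. This gene is among those the study displayed from these same libraries, so its direction is not independent evidence.

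For 5 further core subunits, every SIRPα KO library lay below every WT library, narrowly so for Ndufv2, and none was called by edgeR. The same separation was seen for 21.2% of all tested genes. Ndufs8, which binds iron-sulfur clusters near the membrane, had 138, 133 and 193 CPM in WT and 100, 106 and 106 CPM in SIRPα KO. Its log2 fold change of -0.57 missed the threshold (adjusted p = 0.0580 from edgeR). Ndufv1, which binds NADH and the flavin, had 183, 199 and 222 CPM in WT and 160, 155 and 143 CPM in SIRPα KO (log2 fold change -0.40, adjusted p = 0.0647). Its partner Ndufv2 had a log2 fold change of -0.32, Ndufs7, next to the ubiquinone site, of -0.43, and Ndufs3 of -0.31, with adjusted p values of 0.191, 0.105 and 0.143. A processed pseudogene, Gm12251, matches 75.7% of the Ndufs3 transcript at 98.6% identity, so the value of Ndufs3 is uncertain.

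**Figure D3:**
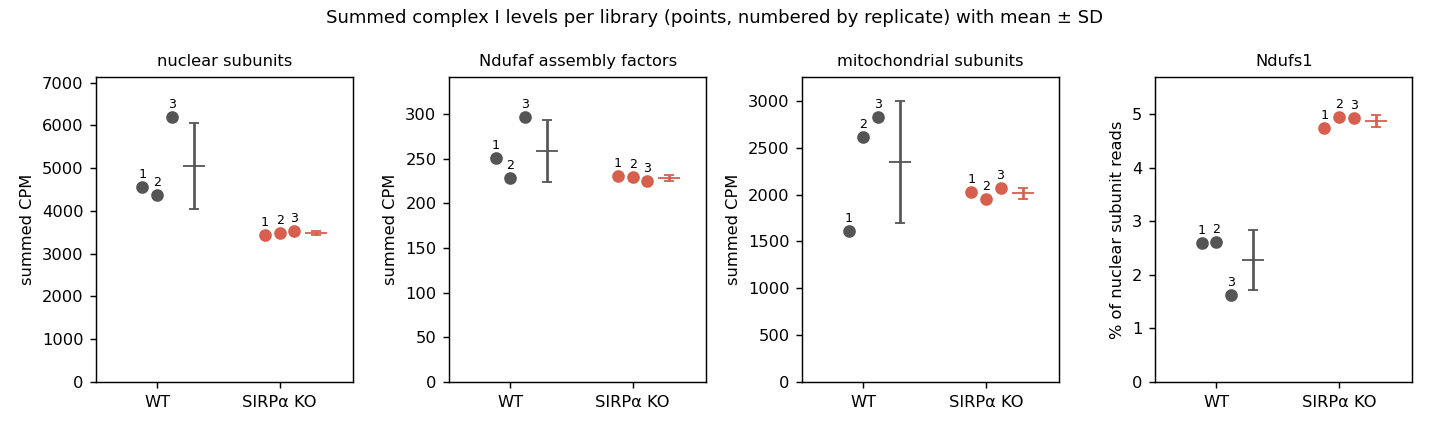
Points are libraries numbered by replicate, with mean ± SD beside them, for the summed CPM of the 36 nuclear subunits, the 8 assembly factors and the 7 mitochondrially encoded subunits, and for the percent of nuclear subunit reads from Ndufs1. Subunits summed to 5042 ± 1006 CPM (WT) and 3485 ± 48.8 CPM (SIRPα KO, SD, n = 3 libraries per group), assembly factors and mitochondrial subunits overlapped, and the share of Ndufs1 was 2.28% ± 0.563 for WT and 4.87% ± 0.116 for SIRPα KO.

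All 29 supernumerary subunits had a negative log2 fold change, 16 of them were called, and their median was -0.77. Of all tested genes, 51.6% had a negative log2 fold change and 5.81% were called lower. Ndufc1, a small subunit of the membrane arm, had the lowest value. Its level was 89.6, 80.5 and 127 CPM in WT and 52.2, 49.5 and 52.7 CPM in SIRPα KO. Every SIRPα KO library lay below every WT library, and the log2 fold change was -0.95 (SE 0.19, adjusted p = 0.0239 from edgeR). Ndufv3, which sits at the tip of the peripheral arm beside the NADH-binding subunits, had 91.3, 82.8 and 112 CPM in WT and 52.3, 47.6 and 50.8 CPM in SIRPα KO. The groups were again apart, with a log2 fold change of -0.93 (SE 0.15, adjusted p = 0.0155). Ndufa13, also known as GRIM-19, a subunit of the membrane arm, had 138, 139 and 211 CPM in WT and 83.8, 85.2 and 90.3 CPM in SIRPα KO (log2 fold change -0.91, adjusted p = 0.0244). Exons of the neighbouring gene Tssk6 overlap 375 exon bases of Ndufa13 on the other strand, and the 2 genes cannot be told apart there if strand was not counted.

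The remaining subunits among the 8 lowest were Ndufa3, Ndufb7, Ndufa11, Ndufa2 and Ndufb2, with log2 fold changes from -0.89 to -0.85 and adjusted p values from 0.0220 to 0.0396. All belong to the membrane arm except Ndufa2, a thioredoxin-like subunit of the peripheral arm. Ndufb7, which lies on the intermembrane side, had 175, 153 and 264 CPM in WT and 105, 108 and 105 CPM in SIRPα KO. Ndufb2 was lower in level, with 67.5, 62.9 and 104 CPM in WT and 41.0, 45.1 and 44.1 CPM in SIRPα KO. For both, WT replicate 3 was the highest library and the SIRPα KO libraries were close together.

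At the other end, 3 supernumerary subunits moved least. Ndufa10, a membrane arm subunit related to nucleoside kinases, had 139, 124 and 156 CPM in WT and 131, 132 and 145 CPM in SIRPα KO, so that the groups overlapped (log2 fold change -0.04, adjusted p = 0.856). Ndufa9, which stabilises the junction of the arms, had a log2 fold change of -0.23 (adjusted p = 0.278) and Ndufab1, the mitochondrial acyl carrier protein, of -0.35 (adjusted p = 0.124). Ndufab1 is also used in mitochondrial fatty acid synthesis and is present in both arms. The other 18 supernumerary subunits ranged from -0.84 for Ndufs6 to -0.44 for Ndufb5. The groups did not overlap in any of these subunits, compared with 21.2% of all tested genes in that direction. Among these 18 was Ndufb11 (log2 fold change -0.82, adjusted p = 0.0373), whose transcript is matched over 50.2% by the pseudogene Gm6444 and is therefore uncertain.

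By arm, 12 of the 19 membrane arm subunits were called lower, around a median of -0.77, and 4 of the 16 peripheral arm subunits, with a median of -0.52. Of all tested genes, 5.81% were called lower. The 9 supernumerary subunits of the peripheral arm had a median of -0.81, with 4 called lower, while the 7 core subunits, which all lie in that arm, had a median of -0.32. Transcript length differed as well, with a median for the longest transcript of 908 bases in the membrane arm and 1264 in the peripheral arm. Within the peripheral arm it was 1141 bases for the supernumerary and 1661 for the core subunits. The difference between the arms was not tested, and neither was the part of length in it.

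The 8 assembly factors showed 7 negative and 1 positive log2 fold change, with a median of -0.17, and none was called by edgeR, with 2 at an unadjusted p under 0.05. Ndufaf2, which binds a late assembly intermediate, had 313, 282 and 409 reads in WT and 161, 202 and 239 reads in SIRPα KO. Its groups did not overlap in CPM either, and its log2 fold change of -0.87 (SE 0.25) missed the threshold (adjusted p = 0.0576). The lincRNA B230220B15Rik covers 65.6% of its exon bases on the other strand, so its value is uncertain. Ndufaf3, which works on the early module around the ubiquinone site, had 591, 506 and 653 reads in WT and 437, 466 and 438 reads in SIRPα KO (log2 fold change -0.51, adjusted p = 0.0812). Its partner Ndufaf4 had 49.7, 46.9 and 75.7 CPM in WT and 59.1, 66.7 and 56.5 CPM in SIRPα KO, with a log2 fold change of 0.08. The groups overlapped for Ndufaf4, and so they did for the other 5, Ndufaf1 (-0.04), a factor of the membrane arm, Ndufaf5 (-0.20), which modifies Ndufs7, Ndufaf7 (-0.15), a methyltransferase, Ndufaf6 (-0.02) and Ndufaf8 (-0.28).

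DESeq2 called 2 assembly factors, 26 subunits lower and 1 higher, in a table where it called 10.9% of genes lower and 13.5% higher. Levels of assembly factors were low, from 15.8 to 33.7 CPM per kilobase of principal transcript in WT. Subunits ran from 17.9 CPM per kilobase for Ndufb2 to 385 for Ndufb8 in WT, and Ndufs1 stood near the bottom, at 41.8 in WT and 63.8 in SIRPα KO. These levels per length depend on which annotated transcript is taken, as for Ndufb2, whose coding transcripts run from 455 to 4371 bases.

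Of the other 4 members, Ndufa4 was tested and called. Ndufa4 was first described with complex I and is now placed with cytochrome c oxidase. It had 171, 182 and 262 CPM in WT and 107, 123 and 124 CPM in SIRPα KO. The groups did not overlap, and the log2 fold change was -0.80 (SE 0.18, adjusted p = 0.0312 from edgeR). Ndufa4l2, its relative, had no entry in the deposited count table and could not be analysed. The pseudogene Ndufb4c, which is identical to Ndufb4 over its whole length, ranged over 1.28 to 2.91 CPM among WT libraries and 1.21 to 1.47 CPM among SIRPα KO libraries and was not called. Ndufa11b and Ndufs6b did not pass the filter, with 3 to 15 and 4 to 9 reads in WT and 1 to 3 reads each in SIRPα KO. Ndufs6b matches Ndufs6 at 96.6% identity, so reads may be divided between them.

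Fold changes followed transcript length over the whole table, and most subunits have short transcripts. With all tested genes grouped into deciles by their longest annotated transcript, the median log2 fold change rose from -0.67 in the shortest decile to 0.43 in the longest. Of the 36 subunits, 15 fell in the shortest decile and 9 in the next. Over the 18 subunits of at most 1026 bases the median was -0.77, with 18 of 18 lower and 10 called. The 1515 other tested genes up to that length had a median of -0.65, with 89.0% lower and 12.2% called lower. The 18 longer subunits had a median of -0.45, with 17 lower, 6 called lower and Ndufs1 called higher. The 8417 other genes in that range of length had a median of -0.06, with 54.1% lower and 6.20% called lower.

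Among the subunits themselves length went with the fold change less closely when the longest transcript was taken (Pearson r = 0.30, Spearman rho = 0.23 over 36 genes) than when the principal transcript was (r = 0.48, rho = 0.44). Over 13498 genes rho was 0.46 and 0.48. These are correlations across genes of the same 6 libraries, and genes are not independent replicates. Ndufb7 shows the difference between the measures, since its longest transcript has 4435 bases and its principal transcript 623. The trend was also present within WT, where the shortest decile of genes lay at 0.41 in WT replicate 3 and at -0.18 and -0.20 in the others (median log2 deviation from the mean of WT). The same median over the subunits was 0.34 in WT replicate 3 and -0.15 and -0.20 in the others. What produced the trend was not tested.

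**Figure D4:**
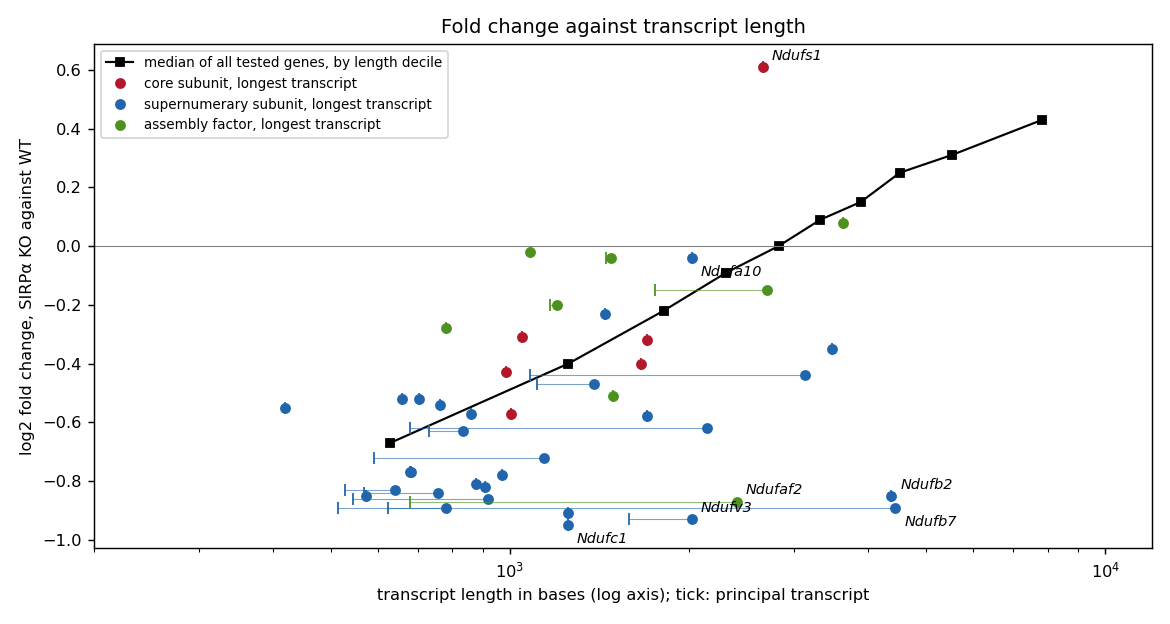
The log2 fold change of 35 subunits and 8 assembly factors is drawn against the length of the longest annotated transcript (dots) and of the principal transcript (ticks joined by a line) on a log axis, with squares for the median of all tested genes in each length decile. Medians rise from -0.67 to 0.43 with length, Ndufs1 lies above the line of medians at 0.61, and Ndufv3 and Ndufb2 lie far below it.

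A spline correction for GC content and transcript length was therefore run beside the main fit, with 5 degrees of freedom for each property, on the deviations of every library. Of the 36 subunits, 29 were then lower and 7 higher. Their median stood at -0.28, while that of all tested genes was -0.09. Ndufb2, Ndufb7, Ndufb8, Ndufc1 and Ndufv3 were called lower (5.20% of all tested genes were) and Ndufs1 was called higher (3.12%). With the length of the principal transcript, 3 were called lower (4.84%) and 0 higher (2.98%) by edgeR, with 2 higher at an unadjusted p under 0.05, and the median was -0.21. With the median length of the coding transcripts, 4 were called lower (4.68%) and 1 higher (3.22%), and the median was -0.36.

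Ndufc1, Ndufv3 and Ndufb2 were called lower under all 3 versions of the correction. For Ndufc1 the log2 fold change was -0.84 with the longest, -0.86 with the principal and -0.94 with the median coding transcript, with adjusted p values of 0.0193, 0.0188 and 0.0207 from edgeR. For Ndufv3 it was -0.86, -0.77 and -0.62, with adjusted p values of 0.0145, 0.0139 and 0.0213. For Ndufb2 it was -1.40, -1.47 and -1.32, and these values rest on its long annotated transcript of 4371 bases. The values of Ndufc1 and Ndufv3 also depend on the transcript taken. Coding transcripts of Ndufc1 run from 315 to 1249 bases and those of Ndufv3 from 493 to 1582 bases. No version of the correction used the shortest coding transcript of these genes. Ndufa4, outside the complex, was also called lower in each, at -0.76, -0.49 and -0.65.

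Ndufs1 was 0.39 with the longest transcript (adjusted p = 0.0373), 0.32 with the principal transcript (adjusted p = 0.0693) and 0.71 with the median coding transcript (adjusted p = 0.0209). It was positive in every version, and in 1 of the 3 it missed the threshold. The value of 0.71 rests on a median coding length of 651 bases. The longest and the principal transcript of Ndufs1 both have 2661 bases. Ndufb7 was -1.15 with the longest transcript and -0.22 with the principal transcript (adjusted p = 0.148), and Ndufb8 was -0.70 and -0.19 (adjusted p = 0.298). Ndufa13, Ndufa3, Ndufa11 and Ndufa2, all among the 8 lowest before, were between -0.38 and -0.22 with the longest transcript and were not called. No assembly factor was called by edgeR under any version, with 1 or 2 at an unadjusted p under 0.05.

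**Figure D5:**
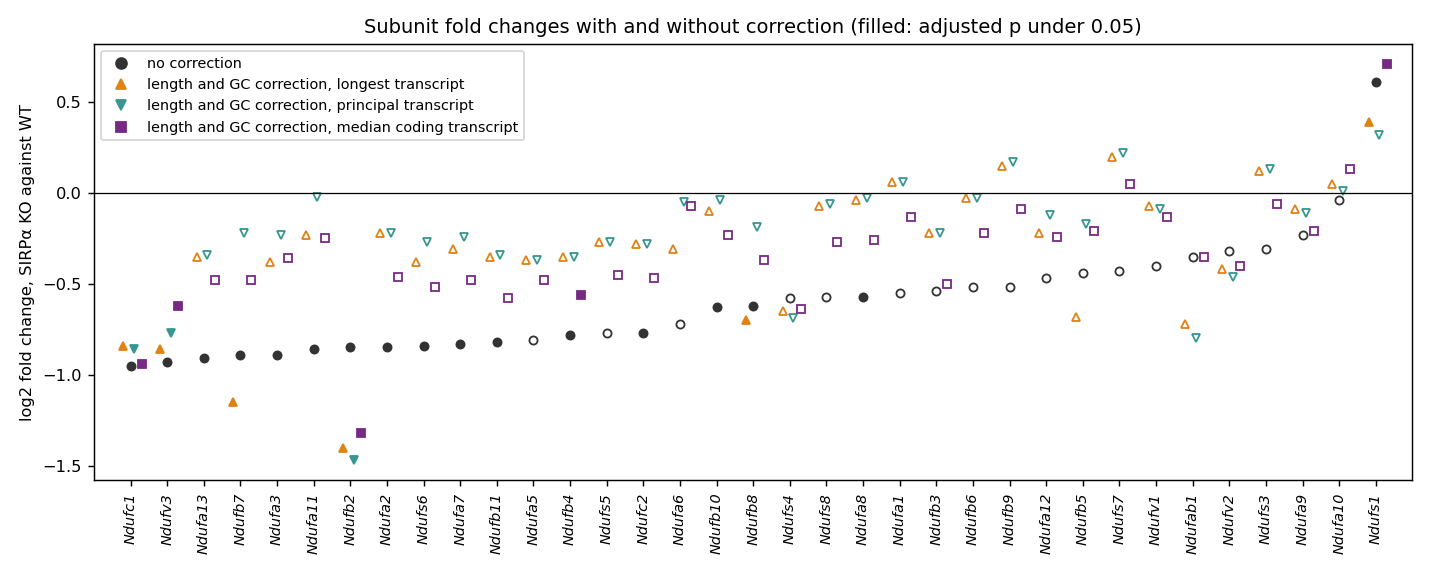
The log2 fold change of 35 subunits, ordered by the uncorrected value, is drawn without correction (circles) and with the length and GC correction using the longest, principal or median coding transcript (other symbols), filled where the adjusted p is under 0.05. Most subunits move toward 0, whereas Ndufc1, Ndufv3 and Ndufb2 keep filled symbols below -0.60 in every version and Ndufs1 stays above 0.

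The 7 core subunits of the membrane arm that mitochondrial DNA encodes pump the protons, and all 7 genes were measured. Their summed level was 1609, 2615 and 2830 CPM in WT and 2023, 1951 and 2067 CPM in SIRPα KO. The groups overlapped for the sum and for each of the 7 genes, and here WT replicate 1 was the low library. None was called by edgeR, with 1 at an unadjusted p under 0.05, and the median log2 fold change was -0.36. The values were -0.70 for mt-Nd6 (adjusted p = 0.146), -0.54 for mt-Nd2, -0.44 for mt-Nd3, -0.36 for mt-Nd4, -0.16 for mt-Nd1, -0.06 for mt-Nd4l and 0.08 for mt-Nd5. The median was -0.03 without WT replicate 3.

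Among 12 assembly genes of complex I without an Nduf name, 1 was called higher and 0 lower by edgeR, with 3 lower at an unadjusted p under 0.05, and the median log2 fold change was -0.14. Acad9, a flavoprotein of the assembly complex for the membrane arm, had 49.5, 48.2 and 48.5 CPM in WT and 72.6, 72.2 and 72.9 CPM in SIRPα KO. The groups were well apart, with a log2 fold change of 0.57 (SE 0.12, adjusted p = 0.0267). After the length and GC correction it was 0.25 and was not called (adjusted p = 0.300). Tmem186, a partner of Acad9, had 15.4, 17.9 and 8.81 CPM in WT and 24.6, 27.2 and 22.3 CPM in SIRPα KO (log2 fold change 0.82, adjusted p = 0.0882). The lowest of the list were Dmac1 (-0.74, adjusted p = 0.0707) and Lyrm2 (-0.64, adjusted p = 0.141).

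Nuclear subunits of the other respiratory complexes are given for comparison, from the same fit. Of all tested genes, 5.81% were called lower. Of 10 subunits of complex IV, 9 were called lower, and the median was -0.76. Of 9 subunits of complex III, 4 were called lower, with a median of -0.60, and of 15 subunits of the ATP synthase 7 were, with a median of -0.57. None of the 4 subunits of complex II was called by edgeR, and their median was -0.33. At an unadjusted p under 0.05, 3 of them were lower and 1, Sdha, was higher (15.8% and 16.1% of all tested genes). The log2 fold change of Sdha was 0.45 (adjusted p = 0.0937 from edgeR), and every SIRPα KO library lay above every WT library. The study names Sdha among the genes increased in these same libraries, so the direction of Sdha is not independent evidence. From these libraries the study also describes raised signatures of OXPHOS and mitochondrial respiration, whereas most nuclear subunits listed here had a negative log2 fold change. The list of mitochondrial ribosomal proteins was taken by symbol (Mrpl or Mrps and a digit), and symbols with -ps were kept in it. Of its 80 tested genes, 9 were called lower, with a median of -0.35. The 36 subunits of complex I, with a median of -0.60, lay within the range of these lists, and no difference between the lists was tested. The median length of the longest transcript was 737 bases for complex IV, 1363 for complex III and 1697 for the ATP synthase. It was 2066 bases for complex II and 1806 for the ribosomal list. All values of these lists are without the length correction, and the part of transcript length in them was not tested.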

How the data were processed

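Gene counts of 6 libraries, made from 10 pg of RNA each with a low-input full-length kit, were analysed. The deposited values are estimated counts per gene. Per the labels, the authors used Partek 10.0, STAR 2.7.8 and mm10, while the study's methods name other versions and GENCODE M21. Values were rounded to whole numbers. SIRPα KO was compared with WT by edgeR 4.0.16 (quasi-likelihood test, TMM, filterByExpr, Benjamini-Hochberg over 13623 genes, threshold 0.05) in R 4.3.3. Exact permutation tests of 3 against 3 libraries cannot fall below 0.1, so none was used. Standard errors are the log2 fold change divided by the root of F. The fitting code was tested on simulated data.

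The 48 members and all gene lists were chosen with earlier results of these data known. Genes were named by role: the core subunits (1 is not reported here and entered only sums, medians and counts), the 8 lowest and 3 highest supernumerary subunits, all Ndufaf genes, Ndufa4 and Ndufa4l2, untested members, members with near-identical copies (BLAST+ 2.17.0, 95% identity or more across 50% of the transcript or more), the 7 mitochondrially encoded subunits and at most 4 genes of other lists. Other members are named only where a correction or a sequence concerned them, which was decided after their values were seen. Lengths are those of GENCODE M21 transcripts. The splines were fitted over 13266 genes outside the lists and used as offsets. Alternatives were DESeq2 1.42.0, RLE, upper quartile and total count scaling, 2 more filters and thresholds, a replicate block, summed codes, thinning, length corrections and leaving out each library. The 17597 gene columns not mapped singly hold the same unit and entered the fit. Libraries of a group may be technical repeats, in which case p values measure only the spread between libraries, and depth limits the genes with few reads, such as Ndufb4c, mt-Nd4l, Sfxn4 and Timmdc1.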

Additional observations from a re-analysis of the deposited data

How the results depend on the processing

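The 16 subunits called lower became 26 with DESeq2, 10 with the replicate block, 0 with libraries of one code summed, 5 with the length and GC correction, 7 with length alone, 3 with principal transcript length, 4 with median coding length, 27 at an adjusted p under 0.1 and 31 at an unadjusted p under 0.05. At that unadjusted threshold 15.8% of all tested genes were lower. Leaving out 1 library gave 0 to 23, with 0 for any SIRPα KO library and 14, 22 and 23 for WT replicates 1, 2 and 3. Without WT replicate 3 the remaining WT libraries carry one code, and without SIRPα KO replicate 1 the remaining SIRPα KO libraries do. Ndufs1, the subunit called higher, was called with every scaling and filter, without any 1 WT library and with the block, but 0 were called higher with summed codes, with principal transcript length or without any SIRPα KO library (range 0 to 1). Assembly factors called rose from 0 to 2 with DESeq2, at an adjusted p under 0.1 and at an unadjusted p under 0.05, and to 1 with upper quartile factors, which put the median of all genes at -0.13. All tested genes called were 1600, or 3170 with DESeq2, 10 with summed codes, 1065 with principal transcript length, 3054 at an adjusted p under 0.1, 4355 at an unadjusted p under 0.05 and 16 to 2606 without 1 library. The replicate numbers did not pair the libraries (correlation of deviations -0.07, 0.07 and 0.01), and the block left 1118 genes called and changed the count of called subunits as given above.

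The subunit median of -0.60 was -0.28, -0.23, -0.21 and -0.36 with the length and GC, length, principal and median coding corrections, and -0.70 to -0.45 without 1 library. For short subunits (-0.77) these values were -0.22, -0.21, -0.22 and -0.41, and -0.90 to -0.50 without 1 library. For long subunits (-0.45) they were -0.18 with principal length and -0.30 with median coding length, and -0.55 to -0.32 without 1 library. The assembly factor median (-0.17) was -0.28 with upper quartile factors and -0.06 with length alone. The median of mitochondrially encoded subunits (-0.36) turned to 0.18 with length alone, was -0.08 with the length and GC correction and -0.14 with principal length, and was -0.60 to -0.03 without 1 library, and that of the other assembly genes (-0.14) was -0.20 to 0.17 without 1 library, positive without WT replicate 3, and -0.02 with the replicate block, -0.03 with the length and GC correction, -0.07 with length alone and -0.05 with principal length. Apart from the constructions named (fewer libraries, another length), the cause was not tested.

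The sign of single genes turned as follows, in log2 fold change. With the length and GC correction it was 0.06 for Ndufa1, 0.05 for Ndufa10, 0.03 for Ndufaf1, -0.46 for Ndufaf4, 0.29 for Ndufaf6, 0.37 for Ndufaf8, 0.20 for Ndufb4c, 0.15 for Ndufb9, 0.12 for Ndufs3, 0.20 for Ndufs7, 0.12 for mt-Nd3, 0.55 for mt-Nd4l and -0.08 for mt-Nd5. With length alone it was 0.14 for Ndufa1, 0.02 for Ndufa10, 0.16 for Ndufaf1, -0.22 for Ndufaf4, 0.11 for Ndufaf5, 0.34 for Ndufaf6, 0.25 for Ndufaf8, 0.19 for Ndufb4c, 0.04 for Ndufb6, 0.03 for Ndufb9, 0.06 for Ndufs3, 0.25 for mt-Nd1, 0.34 for mt-Nd3 and 0.77 for mt-Nd4l. With principal transcript length and GC it was 0.06 for Ndufa1, 0.01 for Ndufa10, 0.02 for Ndufaf1, -0.56 for Ndufaf4, 0.28 for Ndufaf6, 0.39 for Ndufaf8, 0.19 for Ndufb4c, 0.17 for Ndufb9, 0.13 for Ndufs3, 0.22 for Ndufs7, 0.07 for mt-Nd3, 0.52 for mt-Nd4l, -0.14 for mt-Nd5 and 0.05 for Lyrm2. With median coding length and GC it was 0.13 for Ndufa10, -0.41 for Ndufaf4, 0.10 for Ndufaf6, 0.22 for Ndufaf8, 0.02 for Ndufb4c, 0.05 for Ndufs7, 0.40 for mt-Nd4l and -0.27 for mt-Nd5. With summed codes it was 0.05 for Ndufaf1 and -0.02 for Ndufaf4, with the replicate block 0.04 for mt-Nd4l, and with upper quartile factors -0.03 for Ndufaf4 and -0.03 for mt-Nd5. Without 1 library it ranged from -0.12 to 0.06 for Ndufa10, -0.18 to 0.14 for Ndufaf1, -0.05 to 0.34 for Ndufaf4, -0.19 to 0.10 for Ndufaf6, -0.48 to 0.08 for Ndufaf8, -0.36 to 0.36 for mt-Nd4l and -0.11 to 0.32 for mt-Nd5. None of these values was called. The principal and median coding corrections were chosen after seeing the data.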
